A study of Zea mays with 303 samples.

Results

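The genes ndhE, ndhF, ndhG, ndhH and ndhI encode subunits of the chloroplast NADH dehydrogenase-like (NDH) complex, and their transcripts were counted in fixed single cells of maize anthers. They were chosen by symbol and were 5 of the 17140 features in the deposited counts. Of the 11 plastid ndh symbols looked for, ndhA, ndhB, ndhC, ndhD, ndhJ and ndhK matched no feature by symbol, so they are not described here. Each of the 5 symbols matched 1 protein-coding plastid gene in the RefSeq gene table.

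The NDH complex sits in the thylakoid membrane, where it passes electrons from ferredoxin to plastoquinone and pumps protons, and so takes part in cyclic electron flow around photosystem I. It is related to complex I of mitochondria and is built from subunits encoded in the plastid and in the nucleus. In the leaves of maize, a C4 plant, it is best known from bundle sheath chloroplasts. The plastid-encoded subunits differ in place: ndhH and ndhI belong to the arm that reaches into the stroma, where ndhI carries iron-sulfur clusters, and ndhE, ndhF and ndhG belong to the arm within the membrane, where ndhF is one of the antiporter-like subunits.

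All cells came from greenhouse-grown plants of the inbred line W23 carrying bz2, and every sample was 1 cell. Dissected anthers had been fixed in Farmer's solution, a mixture of ethanol and acetic acid, and treated with wall-digesting enzymes before the cells were sorted on a BioSorter or a Hana instrument. CEL-Seq2 libraries, made by a modified protocol, mark each captured RNA molecule with a unique molecular identifier (UMI). The sample titles divided the cells into library pools with the indices 6, 11, 28 and 29, and the sources used here do not give what else differed between the pools.

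The cells formed 1 group with no named plant, so replicates were lacking and differences are described without tests or p-values. The intervals in brackets are exact 95% intervals that cover counting error only, and since the UMIs of a cell are not independent of each other they are too narrow for differences between cells. Levels are the summed counts of the named cells scaled to 1000000 UMIs (CPM). The pools held 55, 78, 79 and 91 cells in the order 6, 11, 28 and 29, with a median depth of 2942, 2803, 1162 and 1746 UMIs per cell. Among anther cell markers, all 4 of the endothecium list, the wall layer with chloroplasts, were matched: CAB1 had 900 UMIs, RBCS stood at 364 CPM, PSAH had 98 UMIs and RCA1, Rubisco activase, 11 UMIs. The epidermal gene CR4 had 12 UMIs and the meiotic gene RAD51B 6 UMIs, and no tapetum gene of the list was matched. Of 96 barcode numbers, 91 occurred in at least 2 pools and 44 in all 4, and no 2 cells had identical counts.

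Transcripts of the 5 genes were found in most cells, at a low count in each. Together they had 1286 UMIs, a level of 1607 CPM [1521 to 1697], and 64.0% of the cells held at least 1. The 25 plastid-encoded features matched by symbol took 3.29% of all UMIs together, and the NDH genes were 4.88% of that share. Many plastid symbols matched no feature, so this sum is not the whole plastid share. Plastid-encoded UMIs below are those of these 25 features only. The median cell had 553 CPM of summed ndh transcripts, and the highest had 11390 CPM. After every cell with at least 1000 UMIs had been thinned to 1000, which left out 87 shallower cells, 54.2% [47.3% to 60.9%] of the others still held an ndh UMI.

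The stromal subunit ndhH was seen in 24.1% of the cells, at 188.7 CPM [159.8 to 221.3], and ndhI in 38.3%, at 552 CPM [502 to 606] from 442 UMIs. Of the membrane subunits, ndhE was seen in 16.5% of the cells, at 160 CPM [133.5 to 190.2], or 87.8 CPM without pool 11. Its neighbour ndhG was seen in 29.7%, at 277.4 CPM [242.1 to 316], and ndhF in 42.2%, at 429 CPM [384 to 477] from 343 UMIs. These are levels of captured tags and are not scaled to transcript length, so they are not compared between genes as amounts of transcript. How tags were drawn from plastid RNAs, whose poly(A) tails are not stable ones as on nuclear mRNAs, was not measured. Maize nuclear chromosomes also carry copies of plastid DNA, and the sources used here do not say how reads with several matches or of the opposite strand were counted, so the counts of all 5 genes are uncertain in that respect.

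In the plastid genome the 5 genes lie in 1 stretch. In the order of the RefSeq table for the assembly NAM-5.0, ndhF is followed by rpl32, a trnL gene, ccsA, ndhD, psaC, ndhE, ndhG, ndhI, ndhA and ndhH. The genes from ndhH to ndhD are known to be transcribed together, with psaC, the iron-sulfur subunit of photosystem I, among them, while ndhF is transcribed apart from them. The unit named below is the sum of its 4 NDH genes counted here, ndhE, ndhG, ndhI and ndhH, with psaC given beside it.

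Levels differed between pools, and more between the pairs of pools than within them. The summed ndh level was 2101 CPM in pool 6 and 2269 CPM in pool 11, against 660 CPM in pool 28 and 897 CPM in pool 29. Median values per cell, which also depend on depth, were 687, 1093, 0 and 534 CPM in that order. With depth made equal at 1000 UMIs per cell, the share of cells with an ndh UMI was 57.1%, 56.9%, 44.2% and 56.1%, with overlapping intervals. The summed levels of the thinned cells were 2095, 1662, 721 and 955 CPM. By summed level, pools 6 and 11 were thus high and pools 28 and 29 low, by a ratio of 2.70 [2.36 to 3.10] between the pairs over all UMIs. The intervals of pools 6 and 11 overlapped, and within the low pair pool 29 stood above pool 28 by a ratio of 1.36 [1.04 to 1.79].

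In ndhE the pools were farthest apart. It stood at 185.8 CPM [130.2 to 257.3] in pool 6 and 306 CPM [242.9 to 380] in pool 11, but at 8.36 CPM [0.212 to 46.6] in pool 28 and 45.1 CPM [21.6 to 82.9] in pool 29. The low levels rest on 1 UMI in pool 28 and 10 UMIs in pool 29, against 36 and 81 UMIs in pools 6 and 11. No interval of the high pair met one of the low pair, and the ratio between the pairs was 7.92 [4.27 to 16.3]. Cells with an ndhE UMI numbered 10 of 55 in pool 6, 31 of 78 in pool 11, 1 of 79 in pool 28 and 8 of 91 in pool 29. With depth made equal at 1000 UMIs per cell, the share was 19.0% in pool 6, 21.5% in pool 11, 1.52% in pool 29 and 0 of 43 cells in pool 28, for which the exact upper limit is 8.22%; the value of pool 29 rests on 1 cell. Over all UMIs, pool 11 was above pool 6 by a ratio of 1.65 [1.10 to 2.51]. In the thinned cells the levels of pools 6 and 11 were almost equal, at 261.9 and 261.5 CPM from 11 and 17 UMIs.

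For ndhI, the stromal iron-sulfur subunit, the levels were 816, 763, 142.04 and 292.9 CPM in pools 6, 11, 28 and 29. The 2 high pools did not differ beyond counting error, while pool 29 was above pool 28 by a ratio of 2.06 [1.19 to 3.75], and the pairs differed by a ratio of 3.27 [2.57 to 4.21]. For ndhG, a membrane subunit, they were 361, 393, 116.98 and 153.2 CPM, a ratio of 2.70 [1.95 to 3.80] between the pairs. The smallest contrasts were those of ndhH and ndhF. The levels of ndhH were 206.5, 264.3, 116.98 and 121.7 CPM, a ratio of 2.00 [1.38 to 2.93], and the interval of pool 6 met those of both low pools. For ndhF, the antiporter-like subunit outside the unit, 532, 544, 275.7 and 283.9 CPM gave a ratio of 1.92 [1.51 to 2.45], with pools almost level inside each pair and no overlap between the pairs.

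**Figure D1:**
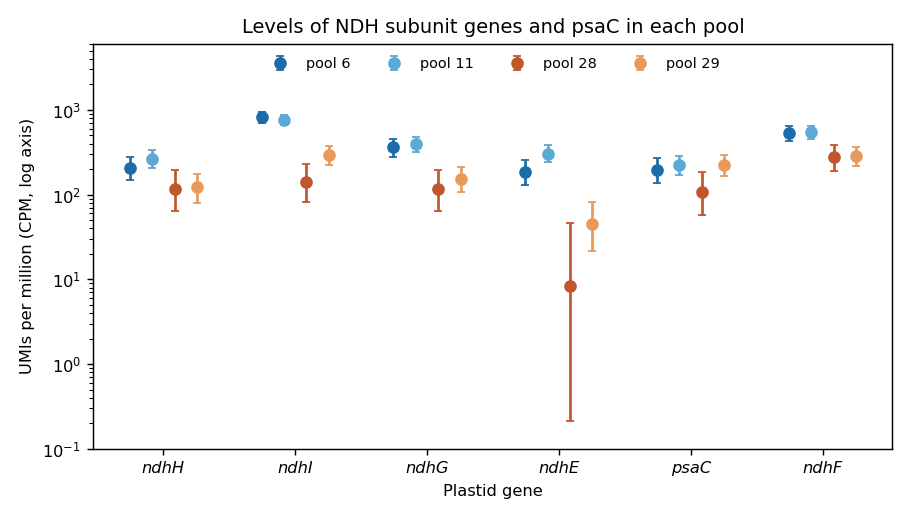
Level of each NDH gene and of psaC in the 4 library pools, in CPM on a log axis. Points are the level over all cells of a pool and bars the exact 95% Poisson interval. The points for ndhE spread most, from 8.36 CPM in pool 28 to 306 CPM in pool 11, and those of psaC least clearly by pair.

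On the log2 scale with 10 CPM added to both sides, 3 of the 5 genes were at least 2-fold higher in pools 6 and 11 (ndhE 2.65, ndhI 1.67 and ndhG 1.37), and ndhH (0.94) and ndhF (0.91) lay just under that limit. Leaving out 1 pool at a time moved the value of ndhE to 3.85 without pool 29 and 2.21 without pool 11, and that of ndhI to 2.39 without pool 29. With barcodes 49 to 96 alone, ndhE had 4.42. Among all 3171 features with at least 50 UMIs, 5.14% were at least 2-fold higher in the same comparison, and their median log2 fold was -0.20. The difference was shared by other plastid-encoded genes, of which 11 of 20 were at least 2-fold higher, with a median of 1.03. Their range ran from -0.13 for rps16, a ribosomal protein gene, to 2.18 for rpoC1, which encodes a subunit of the plastid RNA polymerase. Ordered by this fold, ndhE was first of the 25 plastid-encoded genes, ndhI took place 6, ndhG place 10, ndhH place 15 and ndhF place 16. psaC was in place 24, at 196.2, 222.8, 108.6 and 225.3 CPM in pools 6, 11, 28 and 29, a ratio of 1.15 [0.827 to 1.60].

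Relative to plastid-encoded UMIs alone the contrast shrank. The NDH genes made up 5.43% [4.93% to 5.97%] of plastid-encoded UMIs in pool 6 and 5.08% [4.69% to 5.49%] in pool 11, against 3.70% [2.94% to 4.59%] in pool 28 and 4.09% [3.55% to 4.68%] in pool 29. The intervals of the high pair lay above those of the low pair, by a narrow margin for pools 11 and 29. Per plastid-encoded UMI the log2 fold of the sum fell to 0.39. On that scale ndhE kept a value of 1.94 and ndhI one of 0.67, ndhG had 0.39, and ndhH (-0.04) and ndhF (-0.10) lay near 0. CAB1, the nuclear gene of a chlorophyll a/b-binding protein, ran the other way across pools, with 480, 868, 1445 and 1821 CPM in pools 6, 11, 28 and 29. The part of depth, of the anthers or of the sorter in the differences between pools was not tested.

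CAB1 offers a nuclear mark of photosynthetic cells, and NDH transcripts were higher where it was detected. The 40.3% of cells with a CAB1 UMI had a median depth of 3121 UMIs, against 1305 in the cells without one, so the split also follows depth. The summed ndh level was 2324 CPM in cells with CAB1 and 704 CPM in cells without, a ratio of 3.30 [2.87 to 3.81]. All 5 genes were at least 2-fold higher, against 7.07% of the 3170 features with at least 50 UMIs apart from CAB1, whose median log2 fold was -0.29. Other plastid-encoded genes behaved likewise, with 19 of 20 at least 2-fold higher, a median log2 fold of 1.54 and a range from 0.90 for clpP, a protease subunit, to 2.22 for psbB, which encodes an inner antenna protein of photosystem II.

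The 4 genes of the unit had nearly the same ratio between cells with and without CAB1. It was 3.64 [2.39 to 5.75] for ndhH, at 277.9 against 76.3 CPM, and 4.21 [3.26 to 5.52] for ndhI, at 834 against 197.8 CPM. For ndhG it was 3.84 [2.70 to 5.60], at 412 against 107.4 CPM, and for ndhE 4.04 [2.51 to 6.79], at 239.8 against 59.3 CPM. The gene outside the unit, ndhF, had a ratio of 2.13 [1.67 to 2.74], at 560 against 262.8 CPM, and took place 24 of the 25 plastid-encoded genes by this fold. Its interval lay below that of ndhI and met those of ndhE, ndhG and ndhH. The unit as a whole had a ratio of 4.00 [3.37 to 4.78], which did not meet the interval of ndhF, and psaC one of 4.97.

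**Figure D2:**
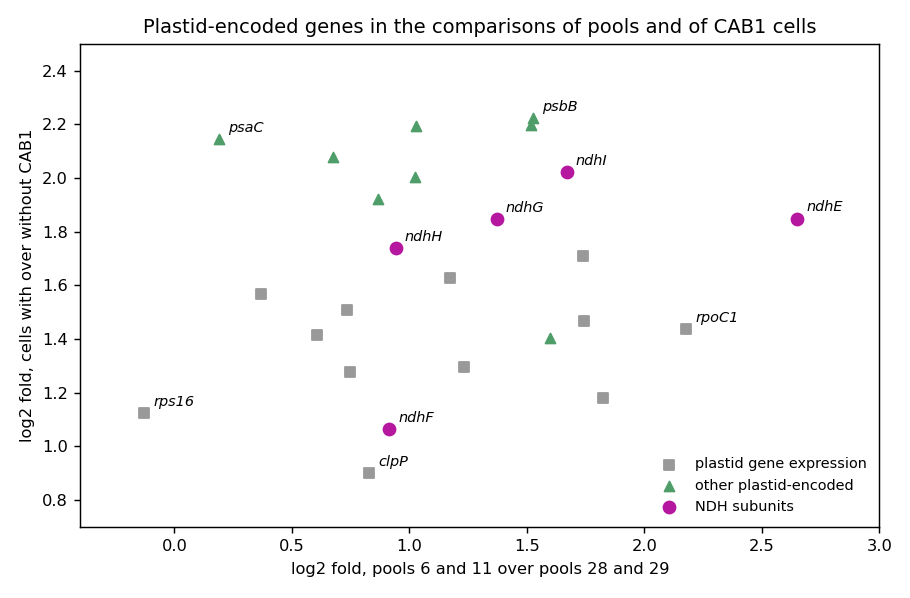
The 25 plastid-encoded genes by their log2 fold (10 CPM added) between pools 6 and 11 and pools 28 and 29 on the x axis and between cells with and without a CAB1 UMI on the y axis. Each point is 1 gene, with NDH genes as circles, genes of plastid gene expression as squares and the others as triangles. The point for ndhE lies farthest right, at 2.65, and ndhF lies low, at 1.06, just above clpP at 0.90.

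The same split was made inside the pools. In pools 6 and 11, all 5 genes were at least 2-fold higher in cells with CAB1, against 7.22% of features, whose median log2 fold was -0.37. The ratios there were 5.88 [3.39 to 10.9] for ndhH, 5.15 for ndhI, 5.05 for ndhG and 4.79 for ndhE, and 2.40 [1.80 to 3.21] for ndhF. In pools 28 and 29, 3 of the 5 were at least 2-fold higher (ndhI, ndhE and ndhG), against 7.00% of features with a median of -0.21. Ratios there were 2.85 [1.61 to 5.38] for ndhI, 2.15 [1.07 to 4.67] for ndhG and 1.92 [1.19 to 3.18] for ndhF. The interval of ndhH, 1.54 [0.764 to 3.32], and that of ndhE, 2.87 [0.595 to 27.3] from 9 against 2 UMIs, included no difference. The ratio of the sum was 4.13 in the high pair and 2.14 [1.61 to 2.87] in the low pair.

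**Figure D3:**
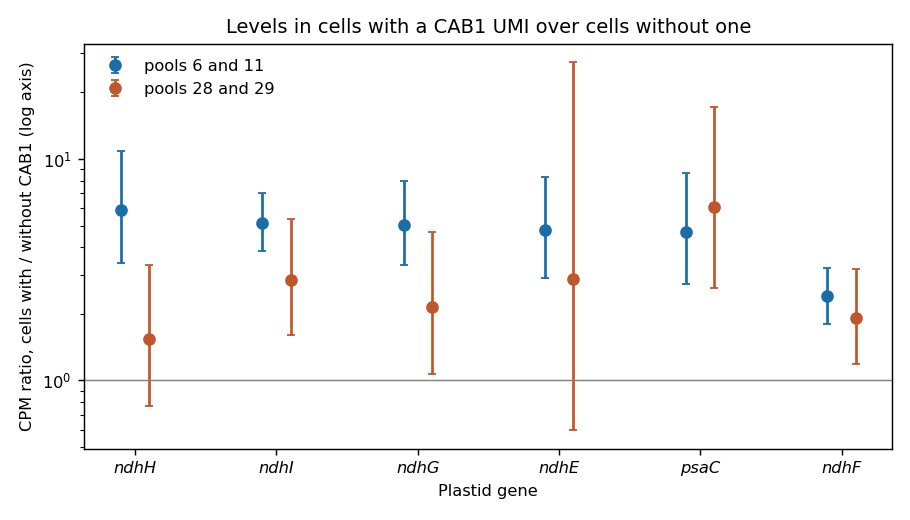
Ratio of the level in cells with a CAB1 UMI to that in cells without, for each NDH gene and psaC, on a log axis. Blue points are pools 6 and 11, orange points pools 28 and 29, and bars the exact 95% interval from counts. Intervals of ndhH (1.54) and ndhE (2.87) in pools 28 and 29 cross 1, and ndhF is the lowest of the blue points at 2.40.

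By single pool, the ratio of the sum was 6.33 [4.96 to 8.15] in pool 6, 3.01 [2.43 to 3.77] in pool 11, 2.69 [1.61 to 4.67] in pool 28 and 1.82 [1.29 to 2.61] in pool 29. It was above 1 in all 4, and the intervals of pool 6 and of the other 3 did not meet. In pool 6 the 15 cells with CAB1 ranged from 345 CPM to 8002 CPM with a median of 3807 CPM, and all of them held an ndh UMI. The 40 cells without CAB1 in that pool ranged from 0 to 5786 CPM with a median of 428 CPM, so the ranges overlapped. In pool 11 the medians were 2380 CPM in 37 cells with CAB1 and 625 CPM in 41 cells without. In pool 28 they were 632 CPM in 30 cells with CAB1 and 0 in 49 cells without, and in pool 29 they were 736 CPM in 40 cells and 398 CPM in 51 cells. In each of the 3 pools both sets began at 0, so cells with CAB1 but no ndh UMI occurred there.

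**Figure D4:**
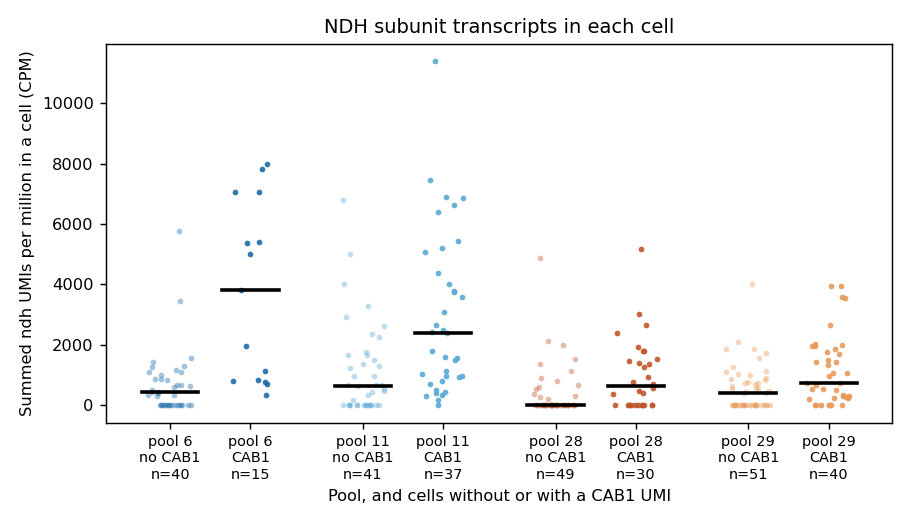
Summed ndh level of each cell in CPM, by pool and by whether the cell held a CAB1 UMI. Each point is 1 cell and black lines are medians over cells, which range from 0 in pool 28 without CAB1 to 3807 CPM in pool 6 with CAB1. The highest point, at 11390 CPM, is a cell of pool 11 with CAB1.

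The difference lay mainly in cells with many CAB1 UMIs. In the 33 cells with 1 CAB1 UMI the summed ndh level was 940 CPM [762 to 1147], and in the 32 cells with 2 to 4 it was 772 CPM [616 to 955]. The interval of the cells with 1 lay above the 704 CPM of cells with none, and that of the cells with 2 to 4 included it. Median depths in these 2 classes, 2794 and 2759 UMIs, were more than that of the cells with none. The 57 cells with at least 5 CAB1 UMIs, with a median depth of 3752 UMIs, stood at 3655 CPM [3414 to 3908]. ndhF was at 262.8, 339, 340 and 760 CPM over these 4 classes. ndhE was at 59.3, 67.8, 27.6 and 414 CPM, and ndhI at 197.8, 203.5, 238.9 and 1388 CPM, so for both genes the last class stood well above the other 3. These classes mix cells of all pools and were not taken apart by pool. Among all cells with CAB1, the summed level was 3461 CPM in pools 6 and 11 and 1027 CPM in pools 28 and 29. For ndhE it was 412 CPM and 43.2 CPM, so the values of the last class do not hold for each pool.

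Depth also enters the split, since a deeper cell is more likely to show a CAB1 UMI. With all cells thinned to 1000 UMIs and split again, 70.1% of 77 cells with CAB1 held an ndh UMI, against 45.3% of the cells without. The log2 fold of the summed level was then 1.47, against 1.71 over all UMIs. By gene the thinned log2 fold was 1.175 for ndhF, 1.26 for ndhE, 1.528 for ndhG, 1.584 for ndhI and 1.597 for ndhH. Over all UMIs ndhF had 1.064 and the genes of the unit 1.738 to 2.021, so ndhF stayed lowest but lay closer to them after thinning. Per plastid-encoded UMI the log2 fold of the sum between cells with and without CAB1 was 0.05. On that scale ndhI had 0.40, ndhE 0.34, ndhG 0.27 and ndhH 0.19, while ndhF turned to -0.58. Split by RBCS, the nuclear gene of the small subunit of Rubisco, the ratio of the sum was 3.76, that of ndhF 2.02 and that of the unit 4.88. Splits by genes of other pathways gave ratios near 1 or below it. It was 0.829 [0.736 to 0.933] for C2, the chalcone synthase gene of flavonoid synthesis, and 0.974 [0.872 to 1.09] for GAPC3, a cytosolic glyceraldehyde-3-phosphate dehydrogenase.

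The make-up of the unit was the same in cells with and without CAB1 to the precision of the counts, and differed between pools. Of its 943 UMIs, ndhI held 46.9% [43.6% to 50.1%], ndhG 23.5% [20.9% to 26.4%], ndhH 16.0% [13.7% to 18.5%] and ndhE 13.6% [11.5% to 15.9%]. In cells with CAB1 the share of ndhE was 13.6%, against 13.5% in cells without. The shares of ndhI were 47.3% and 44.9%, those of ndhG 23.4% and 24.4%, and those of ndhH 15.8% and 17.3%. There were 1.99 ndhI UMIs for each ndhG UMI over all cells, 2.02 in cells with CAB1 and 1.84 [1.22 to 2.81] in cells without.

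Between pools, the shares of ndhE and ndhH had intervals that did not all meet. That of ndhE was 11.8% [8.43% to 16.0%] in pool 6, 17.7% [14.3% to 21.5%] in pool 11, 2.17% [0.0550% to 11.5%] in pool 28 and 7.35% [3.58% to 13.1%] in pool 29. For the pairs it was 15.4% [12.9% to 18.1%] in pools 6 and 11 against 6.04% [3.06% to 10.6%] in pools 28 and 29, though the interval of pool 6 met those of pools 28 and 29. The shares have a fixed sum, so a lower share of ndhE raises the others as a set. The level of ndhH was itself lower in pools 28 and 29, while the share of ndhH ran the other way. It was 13.2% [9.57% to 17.5%] in pool 6, 15.3% [12.1% to 19.0%] in pool 11, 30.4% [17.7% to 45.8%] in pool 28 and 19.9% [13.5% to 27.6%] in pool 29. The intervals of pools 6 and 28 did not meet, and those of the pairs, 14.5% [12.0% to 17.2%] and 22.5% [16.7% to 29.3%], overlapped slightly. Those of ndhI (47.3% and 45.1%) and ndhG (22.9% and 26.4%) were close.

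**Figure D5:**
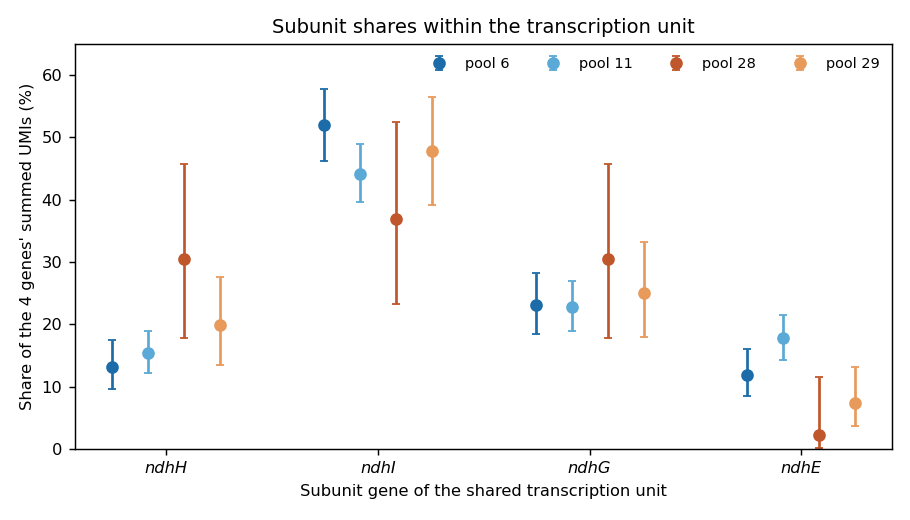
Share of each of 4 NDH genes in their summed UMIs, in percent, for the 4 library pools. Points are shares and bars exact 95% Clopper-Pearson intervals. The share of ndhE is lower in pools 28 (2.17%) and 29 (7.35%) than in pools 6 (11.8%) and 11 (17.7%), while the intervals of ndhI and ndhG overlap across pools.

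Set against psaC, its direct neighbour in the unit, ndhE had 0.947 UMIs per psaC UMI in pool 6 and 1.37 in pool 11, but 0.0769 in pool 28 and 0.200 in pool 29. The ratio for the pairs was 1.21 [0.914 to 1.60] against 0.175 [0.0830 to 0.334]. The other genes of the unit were also lower against psaC in pools 28 and 29. For ndhI the ratio was 3.71 [2.96 to 4.69] against 1.30 [0.926 to 1.84], for ndhG 1.79 [1.39 to 2.32] against 0.762 [0.512 to 1.13], and for ndhH 1.13 [0.855 to 1.51] against 0.651 [0.428 to 0.980], where the intervals overlapped. For the sum of the unit it was 7.85 [6.34 to 9.79] against 2.89 [2.16 to 3.91]. In cells with CAB1 alone the ratio of ndhE to psaC was 1.21 against 0.158, so the contrast between pools was as large within those cells. Within cells with CAB1, ndhE itself was higher in pools 6 and 11 by a ratio of 9.55 [4.83 to 21.5], and psaC by one of 1.25. In cells without CAB1 the log2 fold between the pairs was 1.94 for ndhE, 1.08 for ndhI, 0.76 for ndhF and 0.51 for ndhG, while ndhH turned to -0.36. These rest on few counts, such as 15 against 12 UMIs for ndhH and 19 against 2 for ndhE, and the intervals of ndhG and ndhH there included no difference.

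The balance of ndhF to the unit varied with both splits. Over all cells there were 0.364 ndhF UMIs [0.321 to 0.412] for each UMI of the unit. By pool the ratio was 0.339, 0.315, 0.717 and 0.463 in pools 6, 11, 28 and 29, or 0.325 [0.280 to 0.375] in the high pair against 0.527 [0.408 to 0.679] in the low pair. It was 0.318 [0.274 to 0.367] in cells with CAB1 and 0.596 [0.456 to 0.776] in cells without. Inside pools 6 and 11 the difference by CAB1 was as large, at 0.276 [0.232 to 0.326] against 0.595 [0.435 to 0.808]. Inside pools 28 and 29 it was not detectable at this depth, at 0.507 [0.376 to 0.678] against 0.600 [0.346 to 1.02]. In the cells with at least 5 CAB1 UMIs the ratio was 0.263, and in the split by RBCS it was 0.268 in cells with and 0.647 in cells without. None of these ratios was taken at equal depth, where ndhF and the genes of the unit lay closer together in the split by CAB1.

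NDH transcripts were spread unevenly over cells. The 30 cells with the most ndh UMIs held 62.7% of them, while the 30 deepest cells held 29.0% of all UMIs. The first set was ranked on the same ndh UMIs, so part of that excess follows from the ranking. For the median of the 3171 features with at least 50 UMIs the share was 61.9%, and for rpoC2, with 2325 UMIs, it was also 61.9%. That median takes in features of any count from 50 UMIs, so it is not a like measure for a sum of 1286 UMIs. Taken gene by gene, the 30 cells with the most UMIs of a gene held 84.4% for ndhE, 71.5% for ndhH, 70.6% for ndhI, 68.0% for ndhG and 53.1% for ndhF. This share has a floor that rises as the count of a gene falls, so shares of genes with unlike counts are not directly comparable. The value of ndhF was below that of ndhI, although ndhI had more UMIs, and psaC, with about as few UMIs as ndhE, had 71.3%.

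The most transcripts were in a cell of pool 6 with 74 ndh UMIs among 9447, of which ndhE had 8, ndhF 17, ndhG 13, ndhH 4 and ndhI 32. The next, also of pool 6, had 70 among 9934, with 11, 13, 11, 3 and 32 in the same order, and the third, of pool 11, had 54 among 8131, with 11, 9, 14, 5 and 15. These cells had 21, 15 and 28 CAB1 UMIs, and plastid-encoded features took 11.5%, 10.1% and 11.9% of their UMIs. All of the 10 cells with the most ndh UMIs came from pools 6 and 11, and all held CAB1, at 6 to 28 UMIs.

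Cells that showed more of the 5 genes had a higher median depth, from 921 UMIs with none to 5996 UMIs with all 5. The ranges overlapped, and a cell with none had 8143 UMIs. Of the cells with any, 78 showed 1 of the genes, 40 showed 2, 31 showed 3, 19 showed 4 and 26 showed all 5. The 26 cells with all 5 had a median depth of 5996 UMIs, from 2640 to 9934, and held 57.8% of all ndh UMIs. They were 7 cells of pool 6, 16 of pool 11, none of 79 cells in pool 28 and 3 of pool 29, and 23 of them held CAB1. Thinned to 1000 UMIs, 2 cells still showed all 5 and 99 showed none. Of the 50 cells with an ndhE UMI, 88.0% also had ndhI and 82.0% ndhF, against 28.5% and 34.4% of cells without ndhE, whose median depth was 1503 UMIs against 4412 in the cells with it. The part of depth, of pool or of CAB1 in the number of genes shown, and that of depth in this last difference, was not tested.

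Across the cells with at least 500 UMIs, which were 50, 75, 67 and 81 cells in pools 6, 11, 28 and 29, the summed ndh level was compared with that of every other feature with at least 50 UMIs. Likeness was the Pearson correlation of log2(CPM + 100) within each pool, averaged over the pools, and all genes of a cell share its library, depth and total, so it is a description. Of 3166 other features, with a median r of -0.02, the 10 most like the sum included cemA, a protein of the chloroplast envelope, at 0.54 and atpI, a subunit of the plastid ATP synthase, at 0.53. The other 8 had no name in the table used, and GRMZM5G800780 led them at 0.59. The 20 other plastid-encoded genes ran from 0.30 (rpl33) to 0.54, with a median of 0.43. Outside the plastid, the symbols nearest to the sum were CAB1 (0.48), PSBQ1, a photosystem II subunit gene (0.47), RBCS (0.46), PSAH, a photosystem I subunit gene (0.43), and RPL29, a ribosomal protein gene (0.31). The lowest symbols were the chromatin protein gene MNB1B (-0.23) and the tubulin genes TUBA6 (-0.18) and TUBA1 (-0.17).

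Single subunits were less alike. Pairs of subunits had mean correlations from 0.27 for ndhF with ndhH to 0.44 for ndhG with ndhI. ndhE and ndhG reached 0.67 in pool 6 and 0.59 in pool 11, against 0.14 in pool 28 and 0.25 in pool 29, where ndhE had few UMIs. Pairs of subunits without ndhE ran from 0.02 to 0.42 in pool 28 and from 0.07 to 0.21 in pool 29, so low values there were not particular to ndhE.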

How the data were processed

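The authors deposited UMI counts, unnormalized whole numbers for each feature in each cell. The submitters' processing notes name HISAT2 as a tool and B73 RefGen_v4 as the genome build, and the sources used here do not give the counter, the annotation or any cell filter. From these counts, UMIs were summed over cells and expressed as CPM over all UMIs, in python 3.11.15 with numpy 2.4.6, pandas 2.3.3, scipy 1.17.1 and matplotlib 3.10.9. Intervals are exact 95% intervals: Poisson for levels, Clopper-Pearson for shares, and binomial for ratios given the summed counts. Log2 folds had 10 CPM added, and a feature was counted as higher at 2-fold or more among features with at least 50 UMIs. Depth was 203 to 9934 UMIs per cell. Cells were split by the pool index in their titles and by CAB1 detection. The computation was tested on simulated data.

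Named genes were the 5 members, the 10 features most like their sum, the 5 highest symbols not encoded in the plastid, and the 3 lowest symbols. Listed plastid-encoded genes were included from 20 UMIs, and reference and marker genes at any count. The members and lists were chosen with earlier results of these data known. Symbols were matched with exact case, because ATPA and RPS4 matched plastid symbols only when case was ignored, and both were left out. The lists of nuclear NDH and mitochondrial complex I genes matched 0 of 9 symbols each, and that of nuclear photosynthesis genes 6 of 25. The RefSeq table belongs to another assembly than the counts and gave names and gene order only. Alternatives covered the cells kept, pools left out, scaling, thinning, barcode sets, the CAB1 limit, and correlation settings; those within cells with or without CAB1 and per plastid-encoded UMI were chosen after seeing the data.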

Additional observations from a re-analysis of the deposited data

How the results depend on the processing

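Over 326 alternatives, all log2 folds except 4 were above 0; these were -0.10 and -0.04 between pools for ndhF and ndhH per plastid-encoded UMI and the values of -0.36 and -0.58 given here. The summed level over all cells, 1607 CPM, was 1280 to 1880 CPM with 1 pool left out, 1408 CPM without the 3 cells with the most ndh UMIs, 1480 CPM with barcodes 49 to 96, and 1934 CPM with the 20 most abundant features out of the total; ndhE was at 87.8 CPM without pool 11. The log2 fold between the pool pairs, 1.42, was 1.28 to 1.72 with 1 pool left out, 1.20 without the 3 cells, 1.74 in cells with CAB1, 0.79 in cells without, and 0.39 per plastid-encoded UMI. For ndhE, 2.65 became 4.42 with barcodes 49 to 96, 3.85 without pool 29 and 2.21 without pool 11, and for ndhI 1.67 became 2.39 without pool 29. For ndhH it was -0.36 in cells without CAB1. By CAB1, the fold of 1.71 was 1.42 to 1.99 with 1 pool left out, 1.50 without the 3 cells, 2.25 at 5 or more CAB1 UMIs, 1.47 thinned and 0.053 per plastid-encoded UMI, where that of ndhF turned to -0.58; for ndhE, 1.85 became 1.27 without pool 6. The ndhE share of the unit was 9.67% to 14.6% with 1 pool left out. Cells with an ndh UMI, 54.2% at 1000 UMIs, were 34.4% at 500 and 64.0% not thinned. The share in the top 30 cells, 62.7%, was 59.1% to 64.2% with 1 pool left out and 58.6% without the 3 cells. Of the 10 features most like the sum, 7 to 10 were kept. Apart from what the construction shows, the cause of these shifts was not tested. The ndhE level of pools 28 and 29 rests on 11 UMIs, and pools, with no replicates, cannot be told apart from anthers or sorting. No paired analysis was possible because the cells form 1 group.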

Other observations

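The features whose levels were nearest to a single subunit were mostly without a name in the table used. The highest such correlation was that of ndhH with Zm00001d032291, at a mean within-pool r of 0.67 over the cells with at least 500 UMIs, a feature singled out after its value was seen. That is more than any pair of subunits reached on average (0.44). Whether it shares sequence with the plastid gene was not tested here.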
